A study of Homo sapiens with 6 samples.

Results

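The miRNA registry holds entries that lie inside genes of small nucleolar RNAs (snoRNAs). The 9 entries described here are hsa-miR-664a-5p, hsa-miR-664a-3p, hsa-miR-664b-5p, hsa-miR-664b-3p, hsa-miR-3607-5p, hsa-miR-3607-3p, hsa-miR-1248, hsa-miR-1291 and hsa-miR-3651, written below without the species prefix. They were chosen by name from count tables of 2588 mature miRNA entries, and all 9 were present in both tables. The entries come from 6 loci.

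The cells were A549, a line of human lung adenocarcinoma, carrying a lentiviral, doxycycline-inducible shRNA against METTL1. METTL1 methylates guanosine in RNA at position N7, which gives N7-methylguanosine (m7G). Both groups were collected on day 5 of doxycycline at 200 ng/ml, so all samples are METTL1 knockdown cells, and the labels do not say which of the study's shRNAs they carried. The 3 total RNA libraries served as the input, and the 3 m7G-RIP libraries held RNA that was heat-denatured and immunoprecipitated with an anti-m7G antibody. In the study's general protocol the RNA was decapped before, and eluted from the beads with 7-methyl-GTP. The growth text of the m7G-RIP samples describes Caco-2 medium, but their titles and cell line labels give A549. No library from METTL1-proficient cells and no IgG library was analysed here, so the values compare the antibody fraction with total RNA and do not measure an effect of METTL1. The tables hold miRNAs only, so the knockdown itself was not checked. Total RNA libraries held 9155690 to 10753443 counts and m7G-RIP libraries 2649238 to 3106556. Nothing in the labels says that the replicates were separate cultures, so the p-values measure the spread between these libraries, which may be technical.

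snoRNAs are guide RNAs that are mostly cut out of the introns of host genes. H/ACA box snoRNAs fold into a pair of hairpins followed by an ACA trinucleotide near the 3′ end and guide pseudouridylation, whereas C/D box snoRNAs guide ribose methylation. Some snoRNA fragments of miRNA length are bound by Argonaute proteins, and such fragments have been registered as miRNAs. In short-read libraries a read that overlaps the mature position of such an entry is counted for it, whether it comes from a miRNA or from another fragment of the snoRNA, and these counts cannot tell the sources apart.

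The annotation was compared with the name of the set. In GENCODE 44 (GRCh38) the hairpin genes of 7 of the 9 entries overlapped an annotated snoRNA gene of the same strand. MIR664A lies in SNORA36B and MIR664B in SNORA36A, which are copies of each other. MIR1248 lies in SNORA81, MIR1291 in SNORA2C and MIR3651 in SNORA84. GENCODE holds the locus of miR-3607 (chromosome 5, 86620497 to 86620575, plus strand) as a gene named SNORD138 with the biotype miRNA, and RefSeq lists SNORD138 as a snoRNA gene with MIR3607 among its synonyms. By their names the first 5 snoRNAs belong to the H/ACA class and SNORD138 to the C/D class.

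Each locus lies in a protein-coding host gene on the same strand. The hairpins of miR-664a, miR-1291 and miR-3651 lie in introns of RAB3GAP2, KANSL2 and IARS1, clear of the annotated exons of these genes. IARS1 encodes the cytoplasmic isoleucyl-tRNA synthetase. Those of miR-664b, miR-1248 and miR-3607 lie within DKC1, EIF4A2 and COX7C, where an exon of at least 1 annotated transcript also overlaps them. DKC1 encodes dyskerin, the pseudouridine synthase of H/ACA particles, EIF4A2 an RNA helicase of translation initiation, and COX7C a subunit of cytochrome c oxidase.

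RefSeq (GRCh38.p14) gave mature sequences for 7 of the 9 entries, all but the arms of miR-3607. They are shown because the results separate the 5p from the 3p arms of the miR-664 hairpins. Capitals mark the seed, bases 2 to 8, and no pair of members shared a seed.
miR-664a-5p: aCUGGCUAgggaaaaugauuggau
miR-664b-5p: uGGGCUAAgggagaugauugggua
miR-664a-3p: uAUUCAUUuauccccagccuaca
miR-664b-3p: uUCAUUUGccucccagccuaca
miR-1291: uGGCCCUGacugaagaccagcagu
miR-3651: cAUAGCCCggucgcugguacauga
miR-1248: aCCUUCUUguauaagcacugugcuaaa

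The miR-664 arms lie at chr1:220200586-220200609 (miR-664a-5p) and chr1:220200549-220200571 (miR-664a-3p), both on the minus strand, and at chrX:154768596-154768619 (miR-664b-5p) and chrX:154768635-154768656 (miR-664b-3p) on the plus strand. miR-1248 lies at chr3:186786675-186786701 (plus), miR-1291 at chr12:48654494-48654517 (minus) and miR-3651 at chr9:92292461-92292484 (minus). The miR-664a and miR-664b arms are similar but not identical. The 5p arms differed by an edit distance of 8 (70.4% identity over the alignment) and the 3p arms by 5 (79.2%), more than the 1 mismatch the alignment allowed. A search of chromosomes 1 to 22, X and Y with at most 1 mismatch found only its own locus for miR-664a-5p, miR-664a-3p, miR-1248, miR-1291 and miR-3651. miR-664b-3p also had an exact match, and miR-664b-5p a match with 1 mismatch, in SNORA36C on chromosome 2, so full-length reads of miR-664b could align to both genes. Shorter reads could match more places. How such reads were counted is not stated in the sources used here.

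The 2 copies of SNORA36 show where the arms fall. Their GENCODE 44 transcripts, at chr1:220200546-220200676 on the minus strand (SNORA36B) and chrX:154768528-154768659 on the plus strand (SNORA36A), are 88.1% identical. Capitals mark the 5p and then the 3p mature miRNA.
SNORA36B: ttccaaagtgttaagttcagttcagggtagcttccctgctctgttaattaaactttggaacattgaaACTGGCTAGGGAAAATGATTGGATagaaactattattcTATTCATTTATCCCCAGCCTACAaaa
SNORA36A: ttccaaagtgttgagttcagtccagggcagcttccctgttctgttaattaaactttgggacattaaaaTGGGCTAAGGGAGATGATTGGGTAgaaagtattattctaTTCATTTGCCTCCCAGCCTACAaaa

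Both miR-664 hairpins use the 3′ part of their snoRNA. miR-664a-5p covers bases 68 to 91 and miR-664a-3p bases 106 to 128 of the 131 bases of SNORA36B. In both copies the 3p arm ends on the ACA that stands 3 bases before the 3′ end. miR-3651 also spans the ACA of its snoRNA and runs to the last base of SNORA84, from base 110 to 133. miR-1291 and miR-1248 lie at the other end, at bases 2 to 25 of SNORA2C and 1 to 27 of SNORA81. An ACA within the last 10 bases was found in 4 of these 5 snoRNAs, SNORA81 as annotated being the exception. All 5 held ANANNA, the letters of the hinge motif, which were searched anywhere in the transcript and not only at the hinge. Over the 942 snoRNA transcripts of GENCODE 44, read on their own strand, 90.0% held ANANNA anywhere. An ACA in the last 10 bases was held by 38.5%, and 36.6% held both. These letters describe the transcripts and mark no tested site.

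**Figure D1:**
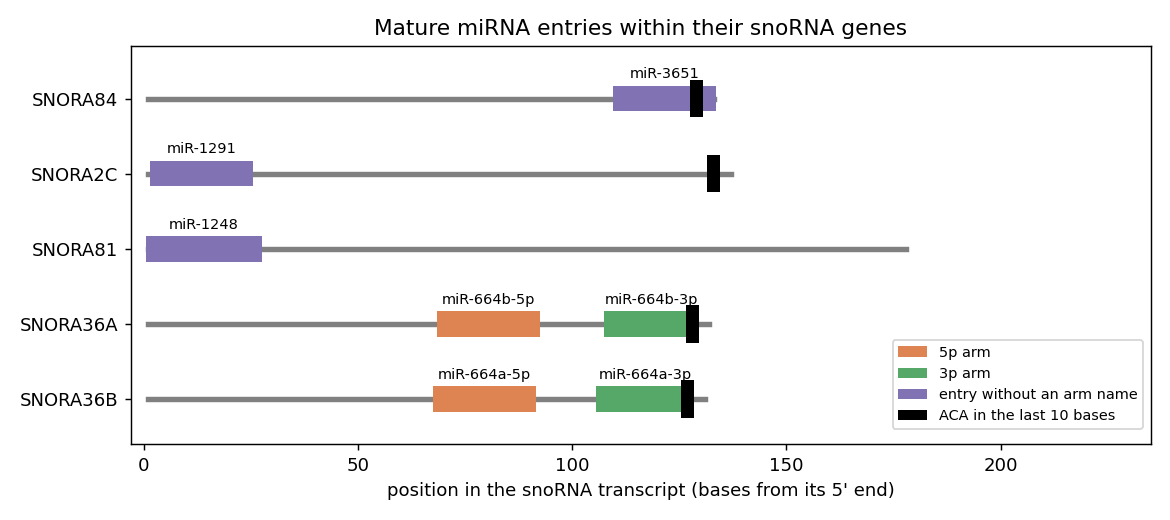
Each grey line is an annotated H/ACA-named snoRNA transcript, from its 5′ end, and coloured blocks are the mature miRNA entries within it. The black mark is an ACA in the last 10 bases, which the 3p arms of miR-664a and miR-664b and miR-3651 include and which was not found in SNORA81.

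Total RNA had a count for all 9 entries in at least 1 library, and m7G-RIP for 7. The 9 entries together took 0.00483% ± 0.000276 of all counts in total RNA and 0.00566% ± 0.000428 in m7G-RIP (SD, n = 3). They are scarce entries, with at most 197 counts in any library. When the 10 most abundant miRNAs were left out of the denominator, the shares were 0.0244% ± 0.00167 and 0.0207% ± 0.00134 (SD, n = 3), so the direction of the small difference depended on the denominator. The make-up of the sum differed. The 5p arms of miR-664a and miR-664b made up 8.40% to 15.1% of it in total RNA and 60.8% to 77.9% in m7G-RIP. miR-3607-3p made up 31.7% to 37.6% in total RNA and 0% to 6.99% in m7G-RIP.

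Setting m7G-RIP against total RNA asks which entries the anti-m7G antibody recovers over input. It was tested on the whole table with edgeR's quasi-likelihood test, TMM scaling and Benjamini-Hochberg adjustment, and an entry was called at an adjusted p under 0.05. Of the 9 members, 7 passed the filter on low counts. Among them, 1 was enriched, where 23.5% of the 620 tested entries were enriched, and 3 were depleted, where 29.2% of the tested entries were depleted. miR-664a-5p was enriched, and miR-664a-3p, miR-664b-3p and miR-3607-3p were depleted. miR-664b-5p, miR-1291 and miR-3651 were not past the threshold, and miR-1248 and miR-3607-5p were not tested. miR-664b-3p, miR-3607-3p and miR-3651 passed the filter through their total RNA counts alone and miR-664b-5p through its m7G-RIP counts alone, so these counts are a description and no support for a shift of the set. The median log2 ratio of the 7 was -2.19, or -1.39 with miR-664b-3p at its bound, and that of all tested entries was -0.074.

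**Figure D2:**
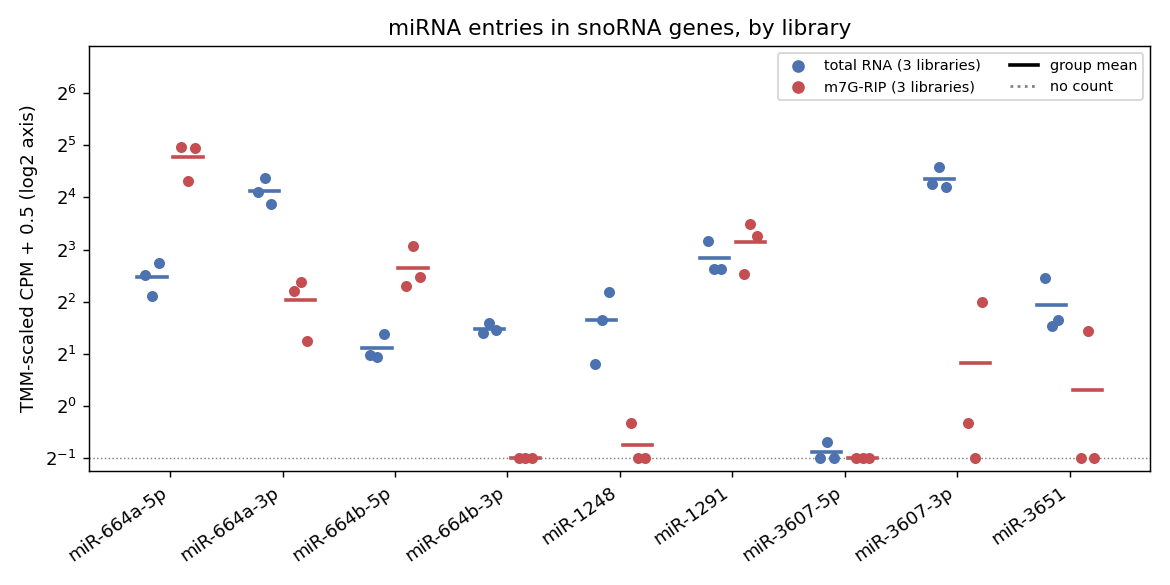
TMM-scaled CPM plus 0.5 of the 9 entries on a log2 axis, with 1 point per library and a line at the mean of each group of 3. The m7G-RIP points lie above all total RNA points for miR-664a-5p and miR-664b-5p, and below them for miR-664a-3p, miR-664b-3p, miR-1248, miR-3607-3p and miR-3651. They lie on both sides of them for miR-1291, while miR-3607-5p was at the floor in both groups. Of the 620 tested entries, 183 had all m7G-RIP points above and 226 all below, and of the 7 tested members 2 and 4.

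The 5p arms of both miR-664 hairpins had higher levels in each m7G-RIP library than in any total RNA library. Levels are given as TMM-scaled CPM, counts over the effective library size put on the scale of CPM. miR-664a-5p stood at 5.19, 3.80 and 6.18 CPM in total RNA replicates 1, 2 and 3, from 46, 32 and 47 counts. In m7G-RIP it stood at 30.9, 19.5 and 30.2 CPM, from 105, 62 and 113 counts. The lowest m7G-RIP library lay above the highest total RNA library, as for 183 of the 620 tested entries, while 226 had all m7G-RIP libraries below. The log2 ratio was 2.41 (SE 0.41, edgeR adjusted p 0.000963), and it stayed past the threshold in all 17 alternatives run, at 2.10 to 2.97. These include the same fit with a 2-fold change also required, which repeats its values. They also include a fit of the summed counts of both 5p arms.

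miR-664b-5p, the same arm of the copy in DKC1, stood at 1.47, 1.43 and 2.10 CPM in total RNA, from 13, 12 and 16 counts. Its m7G-RIP levels were 4.42, 7.85 and 5.09 CPM, from 15, 25 and 19 counts, and again the groups did not overlap. The log2 ratio of 1.78 (SE 0.73) was not past the threshold (edgeR adjusted p 0.0658). It was past it in 4 of 16 alternatives. The adjusted p was 0.0212 with library size alone, 0.00387 where a minimum of 10 counts per library was asked, 0.0112 with edgeR's likelihood ratio test and 0.0353 with limma-voom. The entry passed the filter of the reported fit through its m7G-RIP counts alone, so calls under that filter give no support for enrichment. The minimum of 10 counts was met in every library of both groups.

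The 3p arms of the same hairpins were lower in m7G-RIP. miR-664a-3p stood at 16.6, 20.3 and 14.1 CPM in total RNA, from 147, 171 and 107 counts, and at 4.12, 4.71 and 1.87 CPM in m7G-RIP, from 14, 15 and 7 counts. The groups did not overlap, and the log2 ratio was -2.25 (SE 0.53, edgeR adjusted p 0.00614). At its total RNA level 54.1 to 63.5 counts would have been met in each m7G-RIP library.

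miR-664b-3p had 19, 21 and 17 counts in total RNA, or 2.14, 2.50 and 2.24 CPM, and no count in any m7G-RIP library. At its total RNA level 7.30 to 8.56 counts would have been met in each of them. Against a floor of 3 counts per library it was at least 2.62-fold lower in m7G-RIP. It was called depleted (edgeR adjusted p 0.00831), having passed the filter through its total RNA counts alone. With the replicate number as a block the adjusted p was 0.0689, and without any 1 of the total RNA libraries it did not pass the filter.

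The balance of the arms within a hairpin was examined because a ratio of reads within a library does not depend on scaling. The 5p arm gave 23.8%, 15.8% and 30.5% of the reads of miR-664a in total RNA replicates 1, 2 and 3. The exact (Clopper-Pearson) 95% intervals of these shares were 18.0% to 30.5%, 11.0% to 21.5% and 23.4% to 38.4%. In m7G-RIP the shares were 88.2%, 80.5% and 94.2%, with intervals of 81.0% to 93.4%, 69.9% to 88.7% and 88.4% to 97.6%. The hairpin thus had mostly 3p reads in every total RNA library and mostly 5p reads in every m7G-RIP library. The means were 23.4% ± 7.39 and 87.6% ± 6.84 (SD, n = 3), a difference of 64.3 percentage points. The exact two-sided permutation p was 0.1, the smallest that 3 against 3 libraries can give, and it was 0.1 after adjustment over the 3 shares tested.

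miR-664b had the same order. Its 5p arm gave 40.6%, 36.4% and 48.5% of 32, 33 and 33 reads in total RNA and all of the 15, 25 and 19 reads in m7G-RIP, where the intervals reached down to 78.2%, 86.3% and 82.4%. The difference of the means was 58.2 percentage points (exact two-sided permutation p 0.1, adjusted 0.1, n = 3). The share of miR-664a among the reads of both 3p arms was 88.0% ± 1.48 in total RNA and 100% in m7G-RIP, where it rests on 14, 15 and 7 reads (SD, n = 3). For that difference the exact two-sided permutation p was also 0.1. This share and the 5p share of miR-664b both rest on the absence of miR-664b-3p reads in m7G-RIP, so they are not separate results. The share of miR-664a among the reads of both 5p arms, chosen after its values were seen, was 75.1% ± 2.65 in total RNA and 81.5% ± 8.88 in m7G-RIP, and the groups overlapped. Reads are PCR products without molecular identifiers, so all intervals and floors cover counting error only.

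**Figure D3:**
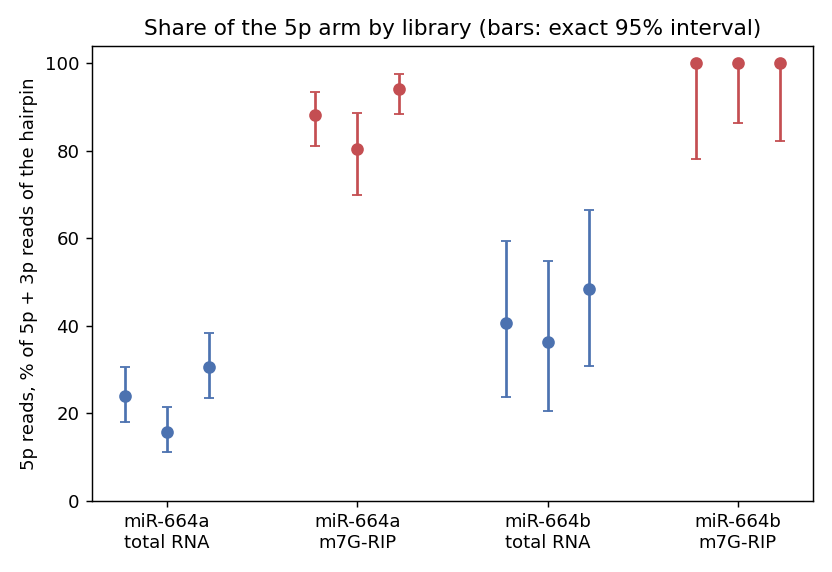
Reads of the 5p arm as a percentage of the 5p and 3p reads of miR-664a and miR-664b, with 1 point per library and its exact 95% interval. The total RNA libraries lie between 15.8% and 48.5% and the m7G-RIP libraries between 80.5% and 100%.

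Opposite calls of the 2 arms of a hairpin were met elsewhere in the table. Of 139 hairpins with both arms tested, matched by name, 12 had an enriched 5p and a depleted 3p arm and 5 the reverse, together 12.2%. miR-664a is among the 12. Its arms differed by 4.66 on the log2 scale, against a median absolute difference of 1.47 over the 130 hairpins with neither arm at the floor, among which it ranked 6.

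miR-3607-3p, from the C/D-named SNORD138, was called depleted in m7G-RIP, having passed the filter through its total RNA counts alone. It stood at 18.6, 23.4 and 17.9 CPM in total RNA, from 165, 197 and 136 counts. In m7G-RIP it had 1, 0 and 13 counts, or 0.295, 0 and 3.48 CPM, where its total RNA level would have given 63.6 to 74.6 counts. All m7G-RIP libraries lay below all total RNA libraries. The log2 ratio was -3.92 (SE 0.97, edgeR adjusted p 0.00824), with 13 of the 14 m7G-RIP counts in replicate 3. Without that library the adjusted p was 0.000192 and the entry was at the floor in m7G-RIP. Since this fit leaves out most of its m7G-RIP counts, it adds no support for depletion. The other arm, miR-3607-5p, had 1 count in total RNA replicate 2 and none elsewhere, so it was at the floor in both groups. No arm share of miR-3607 was computed, since m7G-RIP replicate 2 had no read of either arm.

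miR-3651 and miR-1248, from SNORA84 and SNORA81, had few m7G-RIP counts. miR-3651 stood at 4.97, 2.38 and 2.63 CPM in total RNA, from 44, 20 and 20 counts, and had 7 counts in m7G-RIP replicate 2 (2.20 CPM) and none in the other m7G-RIP libraries. Its log2 ratio was -2.19 (SE 1.33, edgeR adjusted p 0.196). The value rests on replicate 2, without which the entry was at 0 in m7G-RIP and called depleted (edgeR adjusted p 0.0138). Leaving out the only m7G-RIP library with counts favours such a call, so it gives no support for depletion. The entry passed the filter through its total RNA counts alone. With limma-voom and all libraries kept, the entry was called depleted (adjusted p 0.0416). That call came through the same filter, so it gives no support for depletion either.

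miR-1248 had 11, 22 and 31 counts in total RNA, or 1.24, 2.61 and 4.08 CPM, and in m7G-RIP 1 count in replicate 1 and none in the others. At its total RNA level 8.42 to 9.88 counts would have been met in each m7G-RIP library. It did not pass the filter. In the fit of all 6 libraries with no filter it was not past the threshold (edgeR adjusted p 0.0836). Without m7G-RIP replicate 1 or 2 it passed the filter and was called depleted (edgeR adjusted p 0.0238 and 0.0487), and without replicate 3 it was not (0.0568). In these fits it passed through its total RNA counts alone, and without replicate 1 it had no m7G-RIP count left. The calls therefore give no support for depletion. By summed counts over effective library sizes miR-1248 was 26.5-fold lower in m7G-RIP, with an exact 95% counting interval of 4.60 to 1064. That interval leaves out the spread between replicates.

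miR-1291, from SNORA2C, did not separate the groups. It stood at 8.46, 5.71 and 5.65 CPM in total RNA, from 75, 48 and 43 counts, and at 5.30, 10.7 and 9.10 CPM in m7G-RIP, from 18, 34 and 34 counts. m7G-RIP replicate 1 lay below all total RNA libraries and the other m7G-RIP libraries above them. The log2 ratio was 0.34 (SE 0.58, edgeR adjusted p 0.637), which was -0.036 without m7G-RIP replicate 2.

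**Figure D4:**
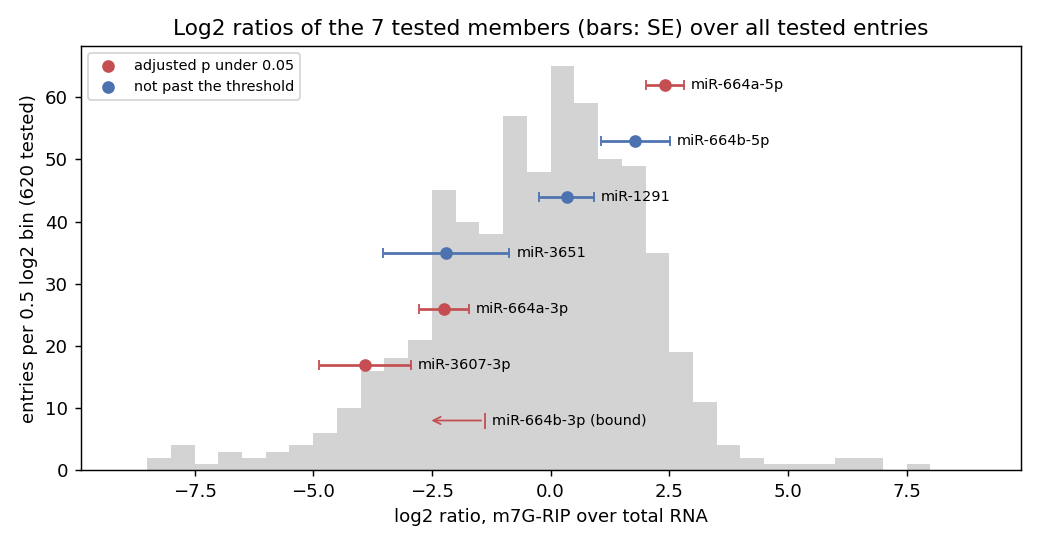
Log2 ratios of m7G-RIP over total RNA for the 7 tested members, with SE, over a histogram of all 620 tested entries, and the height of a member's point carries no value. miR-664a-5p lies at 2.41 and miR-664a-3p at -2.25, and the arrow starts at the bound of miR-664b-3p, a ratio of -1.39.

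The G content of the members was described because the study relates m7G to G-rich miRNAs. It was 45.8% in miR-664b-5p, 33.3% in miR-664a-5p, 29.2% in both miR-1291 and miR-3651, 14.8% in miR-1248, 9.09% in miR-664b-3p and 4.35% in miR-664a-3p. The 5p arms of miR-664 thus held 8 (miR-664a) and 11 (miR-664b) G bases, each with a run of 3, and the 3p arms 1 and 2. Of the 557 tested entries with a sequence, 99.6% had a higher G content than miR-664a-3p and 93.2% a higher one than miR-664b-3p, while 64.1% had a lower one than miR-664a-5p and 88.7% a lower one than miR-664b-5p. The median G content was 39.1% in the 135 enriched entries with a sequence, 22.7% in the 156 depleted ones and 27.8% in all 557. Across these entries, which share their libraries and are not independent, the log2 ratio was higher at higher G content (Pearson r = 0.410, Spearman rho = 0.436). Among the members, miR-3651 and miR-1291 had the same G content and log2 ratios of -2.19 (SE 1.33) and 0.34 (SE 0.58). Neither ratio was past the threshold, that of miR-3651 rests on m7G-RIP replicate 2, and the difference between them was not tested. The part of base composition in the values of the members was not tested.

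**Figure D5:**
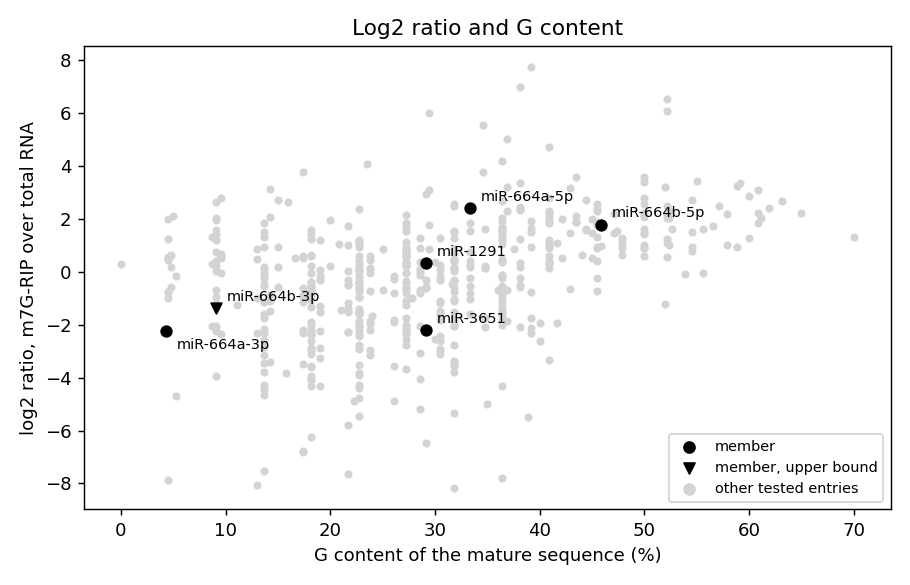
G content of the mature sequence (horizontal, %) and log2 ratio (vertical) of the 557 tested entries with a sequence, with the 6 members among them in black. The 3p arms of miR-664 lie at 4.35% and 9.09% G with ratios below 0 (the triangle is an upper bound), and the 5p arms at 33.3% and 45.8% G with ratios above 0.

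The entries most like miR-664a-5p, the member with the highest mean CPM over the 6 libraries, were found by the correlation of log2 CPM over the 6 libraries, among 356 other entries with 10 or more counts in each of them. They were miR-23b-5p (r = 0.990), miR-30c-1-3p (r = 0.990) and miR-3177-3p (r = 0.986). The rank of miR-664a-5p among the members rests on m7G-RIP (26.9 CPM on average), since in total RNA the mean of miR-664a-5p was 5.06 CPM and those of miR-3607-3p, miR-664a-3p and miR-1291 were higher. With 2 groups in the 6 libraries such values mainly follow the difference between the groups. All 3 were enriched in m7G-RIP, with log2 ratios of 2.56, 1.53 and 3.36 (edgeR adjusted p 1.51e-06, 0.00119 and 4.26e-06). Picking entries by likeness to one that was higher in every m7G-RIP library favours such calls, so they add no support.

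Other entries of the tables also lie in genes of this kind. By the overlap of hairpins with snoRNA genes or genes of the related small Cajal body RNAs, these were the arms of miR-6516, in SCARNA16, and of miR-3653, whose hairpin gene carries no name in GENCODE and was placed in SNORD125 from knowledge of the entry. Only miR-6516-3p passed the filter. It had 51, 19 and 11 counts in total RNA and 7, 0 and 0 in m7G-RIP, and its log2 ratio of -2.17 was not past the threshold (SE 1.36, edgeR adjusted p 0.212). The arms of miR-3653, named after their values were seen, were not tested. miR-3653-5p had 27, 28 and 14 counts in total RNA and 1, 2 and 2 in m7G-RIP, and miR-3653-3p had 33, 29 and 4 in total RNA and 0, 0 and 4 in m7G-RIP, where the groups overlapped.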

How the data were processed

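The deposited files are raw counts of reads per mature miRNA, 1 column per library. Per the authors' methods, single-end 50-base reads of stranded small RNA libraries had adaptors removed by Trimmomatic, were placed over their full length on GRCh38 by STAR (at most 1 mismatch and 10 alignments) and were counted with featureCounts on miRBase 22. The submitters' processing notes name Bowtie2 instead of STAR. The counting of multi-mapping and overlapping reads is not given in the sources used here. Per the labels, libraries were made with the NEBNext SmallRNA kit. Groups and replicate numbers came from the titles.

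Counts were tested with edgeR 4.0.16 (R 4.3.3) over the whole table: TMM scaling, filterByExpr by group, robust quasi-likelihood F test, no replicate block, Benjamini-Hochberg adjustment, threshold 0.05. The code was tested on simulated counts. Libraries of one group differed beyond sampling noise (chi-square per degree of freedom 22.2 to 112), so each was kept. A floor of 3 counts per library was used. Shares were compared by exact permutation tests (scipy 1.17.1). Annotation was GENCODE 44, and hairpin overlap needed at least 50% of the hairpin. Sequences came from RefSeq (GRCh38.p14) and GENCODE transcripts. Alternatives covered scaling, filter, tool (DESeq2 1.42.0, limma 3.58.1, edgeR likelihood ratio), call, summed copies, block and each library left out. All 9 members were named, with the tested entries in other snoRNA genes and the 3 entries most like the member of highest mean CPM over all libraries. The members and lists were chosen with earlier results of these data known.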

Additional observations from a re-analysis of the deposited data

How the results depend on the processing

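Members enriched numbered 1 in the reported fit and 2 with library size alone, with a minimum of 10 counts per library, with edgeR's likelihood ratio test and with limma-voom, where miR-664b-5p joined miR-664a-5p. Except with that minimum, miR-664b-5p passed the filter there through its m7G-RIP counts alone, so those calls give no support for enrichment. Members depleted numbered 3, 0 with that minimum, a filter that no depleted member passed, 4 with limma-voom and 2 with the miR-664a and miR-664b counts summed by arm. In that last fit the 2 depleted 3p rows formed 1 row, still called depleted (log2 ratio -2.43, edgeR adjusted p 0.00299). The member added with limma-voom was miR-3651, which passed the filter through its total RNA counts alone, so that call gives no support for depletion. Leaving out each library in turn gave 1 to 1 enriched and 2 to 5 depleted members, with 5 without m7G-RIP replicate 2. There miR-3651 and miR-1248 were called (edgeR adjusted p 0.0138 and 0.0487), with 0 and 1 counts left in m7G-RIP. Both passed the filter there through their total RNA counts alone, so these calls give no support for depletion. Over all entries, 146 were enriched and 181 depleted. With library size alone 216 were enriched and 141 depleted, and the median log2 ratio of all entries was 0.48 against -0.074.

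Of the log2 ratios of members, 99 kept direction and side of the threshold and 6 gained a call (miR-664b-5p and miR-3651). A further 1 lost its call (miR-664b-3p under the replicate block) and 1 turned (miR-1291, -0.036 without m7G-RIP replicate 2). For miR-1291, leaving out each other library gave 0.040 to 0.51 and library size alone 0.88. Only alternatives in which a member passed the filter are counted. These were 12 for miR-664b-3p, 16 for miR-664a-3p and miR-3607-3p and 17 for miR-664a-5p. For every tested member they include the reported fit with a 2-fold change also required, which repeats its log2 ratio and adjusted p. Those repeats are among the 99 and could not differ. For the arms of miR-664a the alternatives also include the summed counts of both copies. The difference of the members' summed share, 8.26 in CPM of unscaled counts, turned to -37.1 without the 10 most abundant miRNAs in the denominator, and ran from 6.62 to 10.7 with each library left out. The 5p share difference of miR-664a ran from 60.5 to 67.8 points and that of miR-664b from 55.4 to 61.5.

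Libraries were not treated as paired by replicate number, since deviations of same-numbered libraries from their group means had correlations of -0.0095, 0.0085 and 0.070. With the replicate block 1 member was enriched and 2 were depleted, and 122 and 175 of all entries. The paired differences of the arm shares were 64.3 and 58.2 points (exact sign-flip p 0.25, the smallest that 3 pairs can give).

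The alternatives for the arm share of miR-3607 were not run, because m7G-RIP replicate 2 had no read of either arm. Depth limits the depleted side: 3 of 9 members (miR-664b-3p, miR-1248 and miR-3607-5p) did not exceed 3 counts in any m7G-RIP library.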
